A study of Mus musculus with 18 samples.

Results

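Foxp3 and 4 genes for surface proteins of regulatory T cells, namely Nrp1, Folr4, Gpr83 and Lrrc32, were followed through 18 RNA-seq libraries of sorted mouse CD4 T cells. The genes were chosen by name, and Folr4 is the older symbol of Izumo1r. All 5 were among the 38392 genes of the deposited table, and all 5 were among the 15472 genes that passed the filter on low values and were tested.

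The study transferred T cells of 1 clonal receptor into mice without conventional T cells and sorted what they had become in the small intestine 6 weeks later. Donors carried TNa, TNb, RAG1-/- and Foxp3GFP on a C57BL/6 background: they descend from a mouse cloned from the nucleus of 1 regulatory T cell that had arisen outside the thymus, so every donor T cell bears that receptor. The cells injected were CD4+ CD8α- and negative for the Foxp3-GFP reporter. Hosts were C57BL/6 TCRa-/- TCRb-/-, which lack αβ T cells of their own but keep γδ T cells. All 6 groups share donor and host, and each has 3 libraries. TR cells (CD4+Foxp3+) are the regulatory cells, DP cells (CD4+CD8α+) had gained CD8α, and SP cells (CD4+CD8α-Foxp3-) had gained neither. Each population was taken from the epithelium as intraepithelial lymphocytes (IEL) and from the lamina propria beneath it (LP). The result is a set of groups from 1 clone, and the animals behind each library are not given. Because the Foxp3 reporter set the TR gate, the level of Foxp3 in TR against SP cells describes the sort and is no finding. Whether DP cells were also sorted by the reporter is not given in the sources used here.

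Foxp3 is the transcription factor on which the identity of regulatory T cells rests, and these cells restrain immune responses in the gut wall. Nrp1 (neuropilin-1) is a coreceptor for semaphorins and VEGF and in mice is widely used to mark regulatory cells made in the thymus. Folr4 is a folate receptor family member on regulatory and anergic CD4 T cells, which also serves on the mouse egg as the receptor for the sperm protein Izumo1. Gpr83 is a G protein-coupled receptor of brain and regulatory T cells, and Lrrc32 encodes GARP, which holds latent TGF-beta on the surface of activated regulatory cells.

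Each library held 5093955 to 8851347 reads, and values below are normalised counts, the unit of the deposited table. The T cell markers Cd3d, Cd3e, Cd4, Lck and 8 others, all 12 tested, gave sums between 22923 and 29507 in the 18 libraries. IEL TR libraries differed more among themselves than the rest, with correlations of 0.8045 to 0.8727 on the log2 scale against 0.9238 to 0.9438 within the other groups. IEL TR library 1 stood apart, with reads in 18307 genes against 19097 to 20376 in the other 17 libraries and 34.1% of its reads in its top 50 genes. Comparisons with IEL TR were therefore fitted on only the groups compared and are also given without that library.

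All 5 genes were higher in LP TR than in LP SP and LP DP cells, and Nrp1 and Folr4 were higher in IEL TR than in IEL SP and IEL DP cells. A gene was called at an adjusted p under 0.05 in limma, a linear model fitted to log2(normalised count + 1) of all tested genes. In the lamina propria 5 of 5 members were called higher in LP TR than in LP SP, where 5.03% of all tested genes were called higher, and 5 of 5 against LP DP, where 7.76% were. In the epithelium 2 of 5 were called higher in IEL TR than in IEL SP, with 1.49% of all genes called higher, and 2 of 5 against IEL DP, with 2.36%. Both counts were 3 without IEL TR library 1. The filter asked for 10 or more in at least 3 libraries. Nrp1, Gpr83 and Lrrc32 reached 10 only in TR libraries, with at most 8.11, 5.1 and 8.01 in any DP or SP library. They were tested only through their high TR levels, so their calls were no free outcome beside the share of all genes. The call of Foxp3 against LP SP describes the sort. Folr4 alone was called lower in LP DP than in LP SP, where 0.517% of genes were called lower. These are bulk libraries, in which fewer cells of a type and less RNA per cell cannot be told apart.

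**Figure D1:**
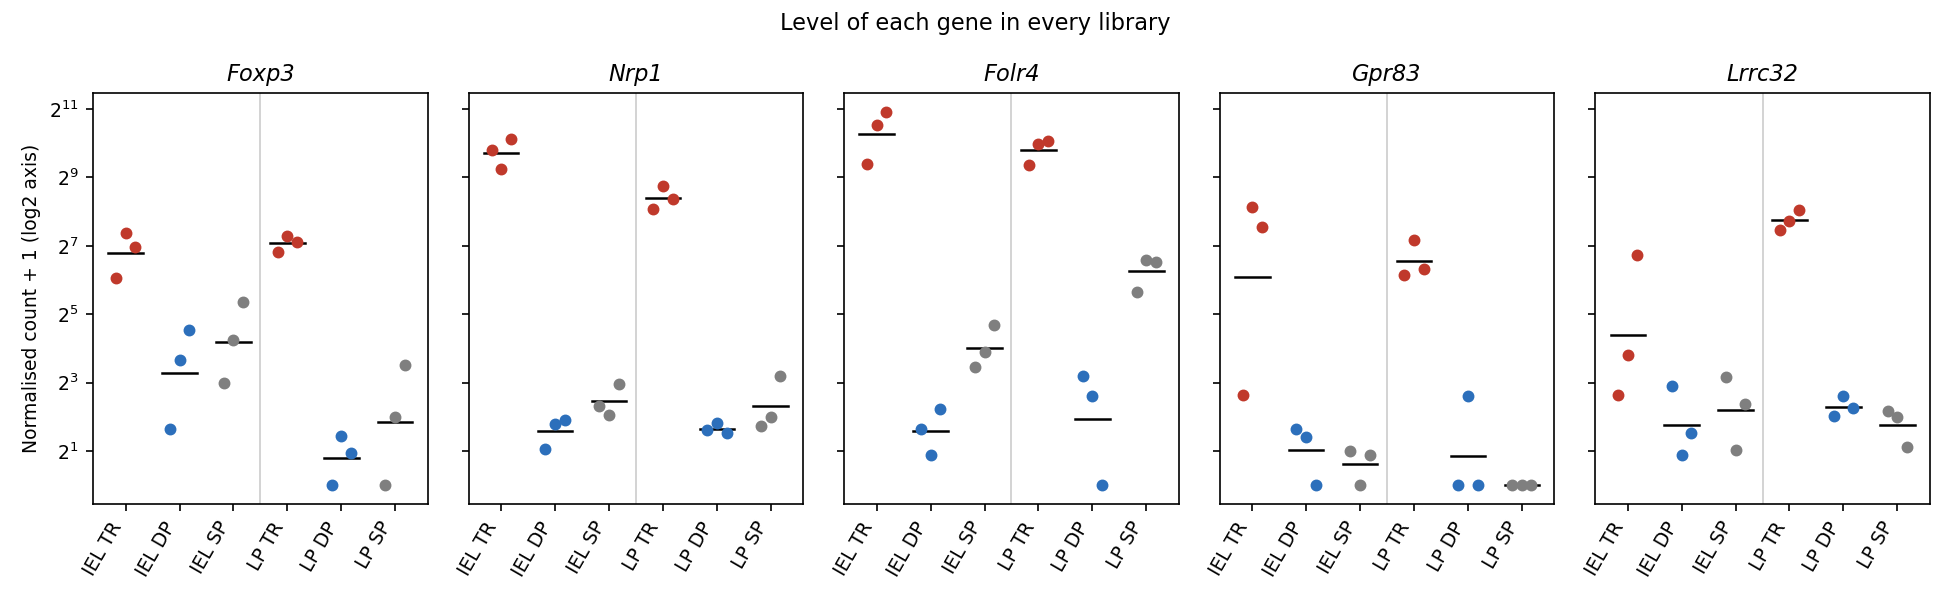
Normalised count + 1 of each gene in every library, on a log2 axis, by group: 1 point per library, with the bar at the mean of the log2 values. The TR libraries of both sites stand highest for all 5 genes, except that Gpr83 and Lrrc32 were at 5.25 in IEL TR library 1, and Folr4 is the gene whose SP libraries stand apart from its DP libraries at both sites.

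The promoters of Foxp3, Folr4 and Gpr83 are shown because all 3 genes were called higher in LP TR cells and the last 2 are neighbours in the genome. Each sequence is RefSeq's window of 250 bases before to 50 after a start, on the build GRCm38.p6, printed 5′ to 3′ on the strand of the gene. Capitals mark matches, on either strand, to GTAAACA (forkhead), TGTGGT (Runx), TTCNNNGAA (STAT) or GGAAA (NFAT).
Foxp3, upstream start, chrX:7579426-7579725, plus strand: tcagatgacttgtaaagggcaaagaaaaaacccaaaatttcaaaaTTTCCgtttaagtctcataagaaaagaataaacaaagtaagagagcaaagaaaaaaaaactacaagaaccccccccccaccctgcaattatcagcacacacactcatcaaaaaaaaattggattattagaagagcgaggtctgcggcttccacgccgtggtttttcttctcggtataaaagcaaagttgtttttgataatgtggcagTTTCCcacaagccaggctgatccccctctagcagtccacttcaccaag
Foxp3, downstream start, chrX:7580233-7580532, plus strand: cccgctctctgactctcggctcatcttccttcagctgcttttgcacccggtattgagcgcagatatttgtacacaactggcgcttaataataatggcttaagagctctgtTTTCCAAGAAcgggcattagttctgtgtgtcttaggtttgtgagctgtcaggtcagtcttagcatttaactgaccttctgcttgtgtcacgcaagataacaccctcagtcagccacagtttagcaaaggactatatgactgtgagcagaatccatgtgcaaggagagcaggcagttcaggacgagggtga
Folr4, chr9:14903718-14904017, minus strand: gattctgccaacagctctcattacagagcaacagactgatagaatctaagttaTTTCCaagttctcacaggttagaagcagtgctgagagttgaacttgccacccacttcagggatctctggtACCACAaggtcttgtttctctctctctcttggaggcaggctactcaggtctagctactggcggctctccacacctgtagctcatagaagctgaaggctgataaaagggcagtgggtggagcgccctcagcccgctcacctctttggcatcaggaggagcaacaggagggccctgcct
Gpr83, chr9:14859960-14860259, plus strand: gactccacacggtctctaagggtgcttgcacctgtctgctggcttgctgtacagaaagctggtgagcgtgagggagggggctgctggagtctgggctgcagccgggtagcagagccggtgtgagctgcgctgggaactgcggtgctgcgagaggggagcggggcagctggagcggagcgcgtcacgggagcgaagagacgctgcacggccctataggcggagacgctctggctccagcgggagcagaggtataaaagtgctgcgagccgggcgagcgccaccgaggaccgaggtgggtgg
The upstream Foxp3 window has 2 NFAT matches, and the downstream one a STAT match that overlaps an NFAT match. Folr4 has 1 Runx and 1 NFAT match, Gpr83 none of the 4 motifs, and the Nrp1 window, not printed, 1 NFAT match. Of 32851 RefSeq promoter windows of this length 61.3% hold the NFAT letters, 16.8% the Runx, 8.3% the STAT and 3.65% the forkhead letters. Base composition differed, with 40.7% and 47.7% G or C in the Foxp3 windows, 52.3% in that of Folr4 and 67% in that of Gpr83. A match to letters is a description of the window and no evidence of binding. Lrrc32 is named only.

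Foxp3 (ENSMUSG00000039521) lies on the plus strand of chromosome X, 7573644 to 7595245 in GRCm38. Its level was 66.2, 164 and 125 in IEL TR libraries 1, 2 and 3, against 2.14, 11.6 and 22.3 in IEL DP and 7.01, 18.1 and 39.9 in IEL SP. It was 112.5, 157 and 138 in LP TR, against 0, 1.7 and 0.94 in LP DP and 0, 2.99 and 10.4 in LP SP. Every TR library stood above every DP and SP library of its site, and the log2 difference from SP was 2.60 ± 0.69 in IEL and 5.24 ± 0.90 in LP. The means were 118 ± 49.0 in IEL TR and 136 ± 22.2 in LP TR (SD, n = 3 each, here and below).

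In DP and SP cells Foxp3 was low, and its levels differed between the sites without passing the test. It averaged 12.0 ± 10.1 in IEL DP against 0.88 ± 0.85 in LP DP, with no overlap between the libraries (15.4% of all genes lay higher in IEL DP in this way), and the log2 difference of 2.49 ± 0.90 (± SE, here and below) did not pass (limma adjusted p = 0.101). The SP groups averaged 21.7 ± 16.7 in IEL and 4.47 ± 5.37 in LP, a log2 difference of 2.37 ± 0.90 that did not pass either (limma adjusted p = 0.120), and there the lowest IEL library, at 7.01, lay below the highest LP library, at 10.4. The DP difference passed without IEL DP library 1 (3.30, limma adjusted p = 0.0457) and with DESeq2 (3.71, adjusted p = 0.0162). Between DP and SP cells of 1 site the Foxp3 libraries overlapped, with log2 differences of -0.92 in IEL and -1.04 in LP (limma adjusted p = 0.941 and 0.804). From high to low, the means ran LP TR, IEL TR, IEL SP, IEL DP, LP SP and LP DP, and of these neighbours IEL TR and IEL SP alone did not overlap.

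Exons of Foxp3 share 853 bases with Flicr, a noncoding RNA on the same strand, 590 with Ccdc22 and 266 with Ppp1r3f on the opposite strand. Whether counting used the strand is not given in the sources used here, and reads on those bases cannot be assigned to 1 gene. Flicr averaged 46.9 in IEL TR and 2.12 in IEL SP, and 11.4 in LP TR and 1.77 in LP SP, and neither difference passed (limma adjusted p = 0.519 and 0.0988). Against LP DP, at 0.313, the LP TR level of Flicr was called higher (3.25 on the log2 scale, limma adjusted p = 0.0167).

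Nrp1 (ENSMUSG00000025810; chromosome 8, 128358604 to 128503363, plus strand) was low in every DP and SP library. Its level was 894, 608 and 1110.1 in the IEL TR libraries, against 1.07, 2.48 and 2.79 in IEL DP and 4.01, 3.19 and 6.79 in IEL SP. In the lamina propria it was 272, 428 and 327.5 in LP TR, against 2.06, 2.55 and 1.88 in LP DP and 2.34, 2.99 and 8.11 in LP SP. No DP or SP library of either site exceeded 8.11, and no TR library fell under 272.

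The mean of Nrp1 in IEL TR, 871 ± 252, was 187-fold that in IEL SP (4.66 ± 1.89) and 412-fold that in IEL DP (2.11 ± 0.92). On the log2 scale, which understates the change of genes near 0, the difference from IEL SP was 7.27 ± 0.39 (limma adjusted p = 0.00152) and from IEL DP 8.13 ± 0.40 (limma adjusted p = 0.000908). In LP TR the mean of 342 ± 79.2 was 76.4-fold that in LP SP (4.48 ± 3.16) and 158-fold that in LP DP (2.16 ± 0.35). Those log2 differences were 6.09 ± 0.46 and 6.74 (limma adjusted p = 1.71e-06 and 3.72e-07). Without IEL TR library 1 the IEL difference from SP was 7.23 (limma adjusted p = 0.0036). The DP means lay under the level that 3 reads in each library would give, 2.83 in IEL DP and 2.82 in LP DP. The 412-fold and 158-fold are therefore not exact. The small DP and SP levels were not called different (log2 -0.86 in IEL, -0.65 in LP; limma adjusted p = 0.806 and 0.728).

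Between the regulatory cells of the 2 sites Nrp1 did not pass the test. All 3 IEL TR libraries lay above all 3 LP TR libraries, as they did for 8.79% of all genes, a 2.54-fold difference of the means and 1.33 ± 0.29 on the log2 scale, which did not pass over all genes (limma adjusted p = 0.139). DESeq2 called it (1.36, adjusted p = 0.000934), and edgeR did not. In order the means ran IEL TR, LP TR, IEL SP, LP SP, LP DP and IEL DP; the last 4 overlapped each with the next.

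Nrp1 is also made by endothelium and by some macrophages and dendritic cells, whose markers were set beside it. The 10 endothelium markers summed to 39.9 to 59.3 in IEL TR and 57.7 to 115 in IEL SP, and to 44.4 to 51.1 in LP TR and 134 to 149.5 in LP SP. Only 2 of the 10 passed the filter. Tie1, between 34.8 and 37.9 in every group, and Pecam1 made up most of the sums. Pecam1 averaged 13.5 in IEL TR and 40.2 in IEL SP, and 2.79 in LP TR and 102 in LP SP. Cdh5, which defines endothelium, averaged 0.99 in IEL TR and 0.36 in LP TR and was at 0 in both SP groups, and Cldn5 was at 0 in both TR groups. The 14 macrophage and dendritic cell markers summed to 382 to 500.2 in IEL TR and 479 to 547 in IEL SP, and to 366 to 543 in LP TR and 546 to 900.1 in LP SP, with Cd14 and Mrc1 at 0 in both TR groups. Zbtb46, a transcription factor of dendritic cells on that list, averaged more in TR cells, at 142 in IEL TR against 94.8 in IEL SP, while LP TR had 144 against 64.2 for LP SP. The part of such cells in the Nrp1 levels was not tested.

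Folr4 (ENSMUSG00000031933; chromosome 9, 14885814 to 14903949, minus strand) had an intermediate level in SP cells. It stood at 674, 1473 and 1922 in the IEL TR libraries, against 2.14, 0.83 and 3.72 in IEL DP and 10.01, 13.8 and 24.6 in IEL SP. The LP TR libraries had 661, 1016 and 1062, against 8.25, 5.1 and 0 in LP DP and 49.2, 95.5 and 91.6 in LP SP. At both sites the order was TR, then SP, then DP, with no overlap between any 2 of the 3 populations; DP libraries lay wholly below SP libraries for 6.33% of all genes in IEL and 7.97% in LP. Over all 6 groups the means ran IEL TR, LP TR, LP SP, IEL SP, LP DP and IEL DP, where IEL TR and LP TR overlapped, as did LP DP and IEL DP.

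The regulatory cells of the epithelium had 84.0-fold the Folr4 mean of SP cells, 1357 ± 632 against 16.2 ± 7.56, a log2 difference of 6.27 ± 0.51 (limma adjusted p = 0.00549). That call was lost without IEL SP library 2 (6.21, limma adjusted p = 0.0547), and without IEL TR library 1 the difference was 6.71 (limma adjusted p = 0.00399). In the lamina propria the fold was 11.6, 913 ± 219 in LP TR against 78.8 ± 25.7 in LP SP, and the log2 difference 3.55 ± 0.68 (limma adjusted p = 0.00426). Against DP cells the log2 difference was 8.69 in IEL and 7.865 in LP (limma adjusted p = 0.0019 and 4.06e-06).

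Folr4 was lower in DP than in SP cells of the lamina propria. LP DP cells averaged 4.45 ± 4.16 against 78.8 ± 25.7 in LP SP, 0.0565-fold and -4.32 ± 0.68 on the log2 scale (limma adjusted p = 0.00754); with only these 2 groups in the fit it did not pass (limma adjusted p = 0.127). In the epithelium the means were 2.23 ± 1.45 in IEL DP and 16.2 ± 7.56 in IEL SP, and the log2 difference of -2.42 ± 0.68 did not pass (limma adjusted p = 0.345). DESeq2 called this one (-2.91, adjusted p = 0.00629). SP cells of the 2 sites did not overlap, which held for 14.3% of all genes in this direction, IEL SP having 0.205-fold the Folr4 of LP SP, and the log2 difference of -2.25 ± 0.68 lay at the threshold (limma adjusted p = 0.0513; edgeR 0.00766 and DESeq2 3.15e-06).

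Gpr83 (ENSMUSG00000031932; chromosome 9, 14860210 to 14870789, plus strand) was close to absent outside regulatory cells. Its level was 5.25, 278 and 186 in the IEL TR libraries, against 2.14, 1.65 and 0 in IEL DP and 1, 0 and 0.85 in IEL SP. In LP TR it was 70.3, 142 and 79.1, against 0, 5.1 and 0 in LP DP and 0 in all 3 LP SP libraries. The IEL TR values thus rest on libraries 2 and 3, library 1 holding 5 reads, which still put it above the SP and DP libraries of its site. The means ran IEL TR, LP TR, LP DP, IEL DP, IEL SP and LP SP, and of these neighbours LP TR and LP DP alone did not overlap.

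LP TR cells averaged 97.1 ± 39.0 Gpr83, at least 31.6-fold higher than LP SP when LP SP is set to the floor of 3 reads in each library, and their log2 difference from LP DP was 5.68 (limma adjusted p = 0.000204). The IEL TR mean was 156 ± 139 against 0.617 ± 0.539 in IEL SP and 1.26 ± 1.12 in IEL DP, where no SP or DP library held more than 2 reads. The log2 difference from IEL SP of 5.47 ± 1.49 did not pass (limma adjusted p = 0.133). It passed without IEL TR library 1 (7.2, limma adjusted p = 0.00522), and that against IEL DP did too (6.81, limma adjusted p = 0.0109). Against IEL SP it also passed with DESeq2 (7.93, adjusted p = 3.36e-05), but not with edgeR. In limma it passed in a fit over all 18 libraries (adjusted p = 0.00524) and with library weights (adjusted p = 0.0217). The difference from IEL DP passed in the same settings. Between the TR groups Gpr83 overlapped (log2 -0.44, limma adjusted p = 0.937), and without IEL TR library 1 this difference turned to 1.29 (limma adjusted p = 0.218).

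Lrrc32 (ENSMUSG00000090958; chromosome 7, 98489283 to 98502181, plus strand) was high in regulatory cells of the lamina propria and uneven in those of the epithelium. The LP TR libraries had 176, 211 and 262, against 3.09, 5.1 and 3.77 in LP DP and 3.51, 2.99 and 1.16 in LP SP. The IEL TR libraries had 5.25, 13.1 and 106, against 6.41, 0.83 and 1.86 in IEL DP and 8.01, 1.06 and 4.24 in IEL SP. IEL TR library 1, with 5 reads, lay within the range of the IEL DP and IEL SP libraries, and every IEL TR library lay below every LP TR library, as for 11.1% of all genes.

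In the lamina propria the Lrrc32 mean of 217 ± 43.0 in LP TR was 84.8-fold that in LP SP (2.55 ± 1.23) and 54.3-fold that in LP DP (3.99 ± 1.02). The log2 differences were 5.99 ± 0.61 and 5.45 (limma adjusted p = 2.91e-05 and 4.37e-05). The LP SP mean lay under the 3.08 that 3 reads in each library would give, so the 84.8-fold is not exact. In the epithelium the differences from IEL SP (2.20 ± 1.18) and IEL DP (2.64 ± 1.18) did not pass (limma adjusted p = 0.431 and 0.320), nor did they without IEL TR library 1. The IEL TR mean of 41.5 ± 56.2 was 0.192-fold the LP TR mean, a log2 difference of -3.35 ± 1.04 that did not pass (limma adjusted p = 0.260). A fit over all 18 libraries, which pools the smaller spread of the other groups, called it (limma adjusted p = 0.0283). From high to low the means ran LP TR, IEL TR, IEL SP, LP DP, IEL DP and LP SP, and all neighbours but LP TR and IEL TR overlapped.

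Lrrc32 is also made by endothelium and by platelets. The 8 platelet and megakaryocyte markers summed to 6.22 to 12.2 in LP TR and 8.11 to 21.1 in LP SP, and to 0.87 to 12.6 in IEL TR and 4.24 to 37.1 in IEL SP, with Pf4, Ppbp, Gp9 and Gp1bb at 0 in both TR groups. These genes were at 0 in the SP groups too, apart from Pf4 in LP SP, at 2.91. The 8 markers of B and plasma cells were higher in LP TR, with a sum of 106 to 574.5 there against 2.34 to 25.5 in LP SP, while the IEL sums overlapped, at 9.45 to 274.5 in IEL TR and 13 to 41.6 in IEL SP. Cd79b and Igj made up most of it in LP TR, at 77.3 and 163. Its part in the levels of the 5 genes was not tested.

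**Figure D2:**
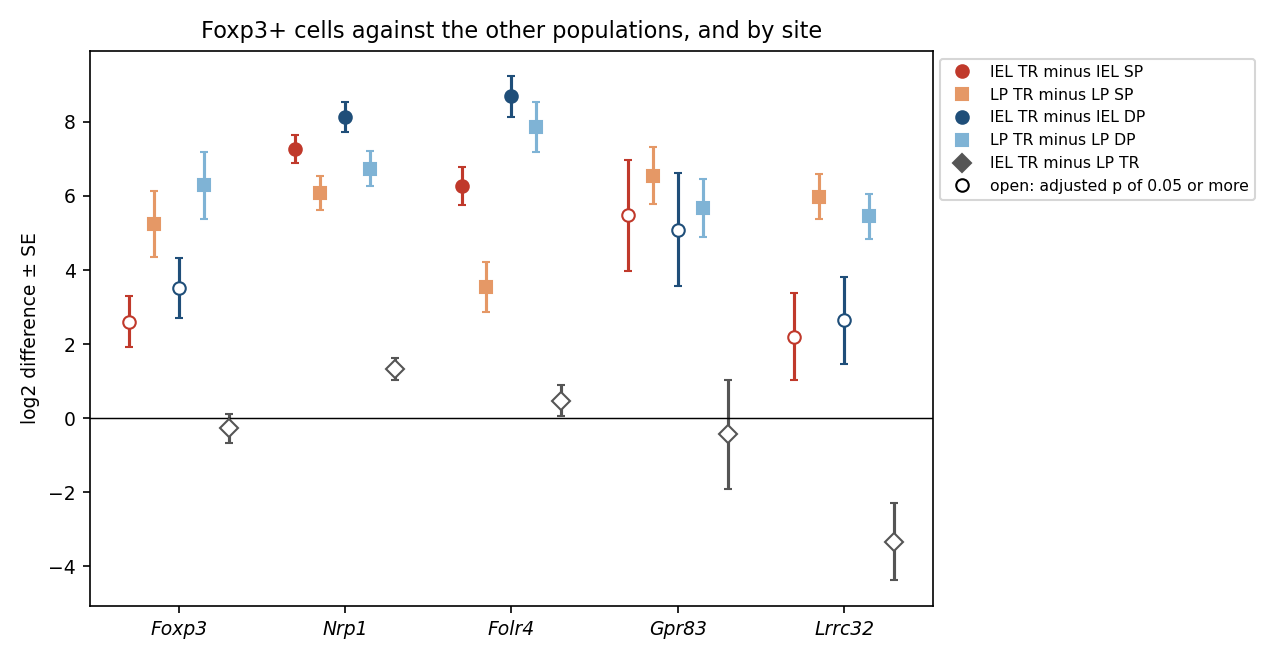
Log2 difference ± SE of each gene between TR and SP cells and between TR and DP cells at each site, and between the TR cells of the 2 sites, with filled symbols for a limma adjusted p under 0.05 (n = 3 libraries per group). All TR differences from SP and DP cells lie above 0, those of Foxp3, Gpr83 and Lrrc32 in the epithelium are open, and Lrrc32 has the lowest difference between sites, at -3.35.

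Levels of different genes were compared per kilobase of exon. Per kilobase, Folr4 led at both sites with a mean of 585 in IEL TR and 393.5 in LP TR. Nrp1 had 89.0 in IEL TR and 35.0 in LP TR, Foxp3 25.8 and 29.6 and Gpr83 30.7 and 19.1 in the same order, and Lrrc32 8.86 in IEL TR and 46.2 in LP TR. In SP cells the Folr4 level per kilobase was 6.96 in IEL SP and 34.0 in LP SP, the LP SP value lying between those of Foxp3 and Nrp1 in LP TR. Foxp3 shares 853 of its 4577 exon bases with Flicr, and further bases with Ccdc22 and Ppp1r3f. Its level per kilobase is therefore less certain than those of the other genes.

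The ratio of a surface gene to Foxp3 within a library does not depend on the normalisation factor of that library. These ratios are not corrected for exon length, so they compare libraries and do not rank the genes. Lrrc32 counts were 0.0793, 0.0798 and 0.853 times the Foxp3 counts in the IEL TR libraries, against 1.57, 1.35 and 1.90 in the LP TR libraries, without overlap. Nrp1 stood at 13.5, 3.71 and 8.91 times Foxp3 in IEL TR against 2.41, 2.73 and 2.38 in LP TR, also without overlap. Folr4 ran at 9.0 to 15.4 times Foxp3 in IEL TR and 5.88 to 7.72 in LP TR. Relative to Foxp3, then, Nrp1 and Folr4 were higher and Lrrc32 lower in each IEL TR library than in any LP TR library, whereas Gpr83 overlapped, at 0.0793 to 1.70 in IEL TR and 0.575 to 0.905 in LP TR. Without IEL TR library 1 the other directions stayed, and Gpr83, at 1.70 and 1.49, lay above the LP TR libraries. The share of all genes whose ratio to Foxp3 separates these libraries was not computed, so no background stands beside these ratios. An exact permutation test of 3 against 3 cannot go below 0.1, and these ratios were not tested.

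Whether the regulatory difference itself changed with the site was tested as an interaction over IEL TR, IEL SP, LP TR and LP SP. No member passed in limma, where 0.168% of all genes did, although 3 members were under 0.05 before adjustment; edgeR called 0 and DESeq2 1. The Folr4 difference was 2.72 ± 0.63 larger in the epithelium on the log2 scale (limma adjusted p = 0.194; DESeq2 2.85, adjusted p = 0.00117) and the Lrrc32 difference was -3.79 ± 1.29 against that in the lamina propria (limma adjusted p = 0.456). The site comparisons within a population called 0 of 5 members in limma, against 0.601% of all genes for IEL TR against LP TR, 9.51% for IEL DP against LP DP and 9.91% for IEL SP against LP SP. At an unadjusted p under 0.05 they held 2, 1 and 2 members in the same order, edgeR called 0, 0 and 1, and DESeq2 1 in each.

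IEL DP against IEL SP called 0 of 5 members in limma, with 0.213% of all genes called, 1 member at an unadjusted p under 0.05, 0 by edgeR and 1 by DESeq2. In the interaction of the DP against SP difference with site, limma called 0 members and 0% of all genes; 974 genes and 0 members were under 0.05 before adjustment, edgeR called 0 genes and DESeq2 31, none of them a member. Libraries did not overlap for 4 of 5 members in IEL TR above IEL SP (12.6% of all genes) and 5 of 5 in LP TR above LP SP (13.4%), and for 4 of 5 in IEL TR above IEL DP (13.6%) and 5 of 5 in LP TR above LP DP (16.6%). Foxp3 is in each of these counts, and against SP cells its place describes the sort. Nrp1, Gpr83 and Lrrc32 passed the filter only through TR libraries, so the shares of all genes are no free yardstick for them. In IEL DP below IEL SP they did not overlap for Nrp1 and Folr4, 2 of 5 members (6.33% of all genes). For Nrp1 this rests on scaling alone, since IEL DP libraries 2 and 3 and IEL SP library 2 held 3 reads each.

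Other genes of regulatory cells were also higher in TR cells. Of 22 partner genes, 12 were called higher and 0 lower in IEL TR than in IEL SP, with a median log2 difference of 2.70 over the list and -0.05 over all genes. In LP TR against LP SP, 18 were called higher and 0 lower (median 2.025 against -0.01). Over all genes 1.49% were called higher and 1.42% lower in IEL, and 5.03% and 4.47% in LP. The list was chosen with earlier results of these data known. No lower call came from edgeR in either comparison, and DESeq2 made 0 in IEL and 1 in LP. Capg, an actin-capping protein, averaged 6796 ± 1633 in IEL TR against 123 ± 9.14 in IEL SP, a log2 difference of 5.755 (limma adjusted p = 0.00117). Ikzf2 encodes Helios, a partner of Foxp3, and averaged 10803 ± 529 in IEL TR against 339.5 ± 93.9 in IEL SP (5.02, limma adjusted p = 0.00128). Icos, a costimulatory receptor, and Tnfrsf4, the receptor for OX40 ligand, were higher by 2.64 and 5.61 on the log2 scale (limma adjusted p = 0.00325 each). In LP TR, Klrg1, a lectin-like receptor of terminally differentiated cells, averaged 3448 ± 326 against 24.6 ± 11.3 in LP SP (7.16, limma adjusted p = 2.83e-05). Ikzf4, which encodes Eos, averaged 372 ± 49.6 against 25.3 ± 7.91 (3.87, limma adjusted p = 3.6e-06).

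Members of the list outside the calls in LP TR against LP SP were Il2rb, Nt5e, Prdm1 and Swap70. Against DP cells 14 partner genes were called higher and 1 lower in IEL TR, and 16 higher and 1 lower in LP TR. Over all genes 2.36% were called higher and 1.78% lower in IEL, and 7.76% and 5.42% in LP. The lower gene was at both sites Itgae, the αE integrin of intraepithelial cells (-0.84 and -0.73, limma adjusted p = 0.04 and 0.000855). Like Folr4, some partners were lower in DP than in SP cells: 4 of 22 were called lower and 2 higher in LP DP than in LP SP (0.517% of all genes were called lower and 0.252% higher). Among them were Icos (-1.34), Tnfrsf4 (-3.94) and Tnfrsf18 (-1.45) lower and Itgae (1.26) higher (limma adjusted p = 7.68e-05, 0.000439, 0.00575 and 0.000134). IEL DP had lower Icos (-1.79, limma adjusted p = 5.91e-06) and Tnfrsf18 (-1.31, limma adjusted p = 0.0199) than IEL SP, the Tnfrsf18 call being lost without any 1 IEL SP library or IEL DP library 3. Between the TR groups Ctla4, the inhibitory receptor, was called, at 4162 ± 608 in IEL TR against 13737 ± 3099 in LP TR (-1.71, limma adjusted p = 0.0362), a call lost on leaving out any 1 of 5 of the 6 libraries.

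**Figure D3:**
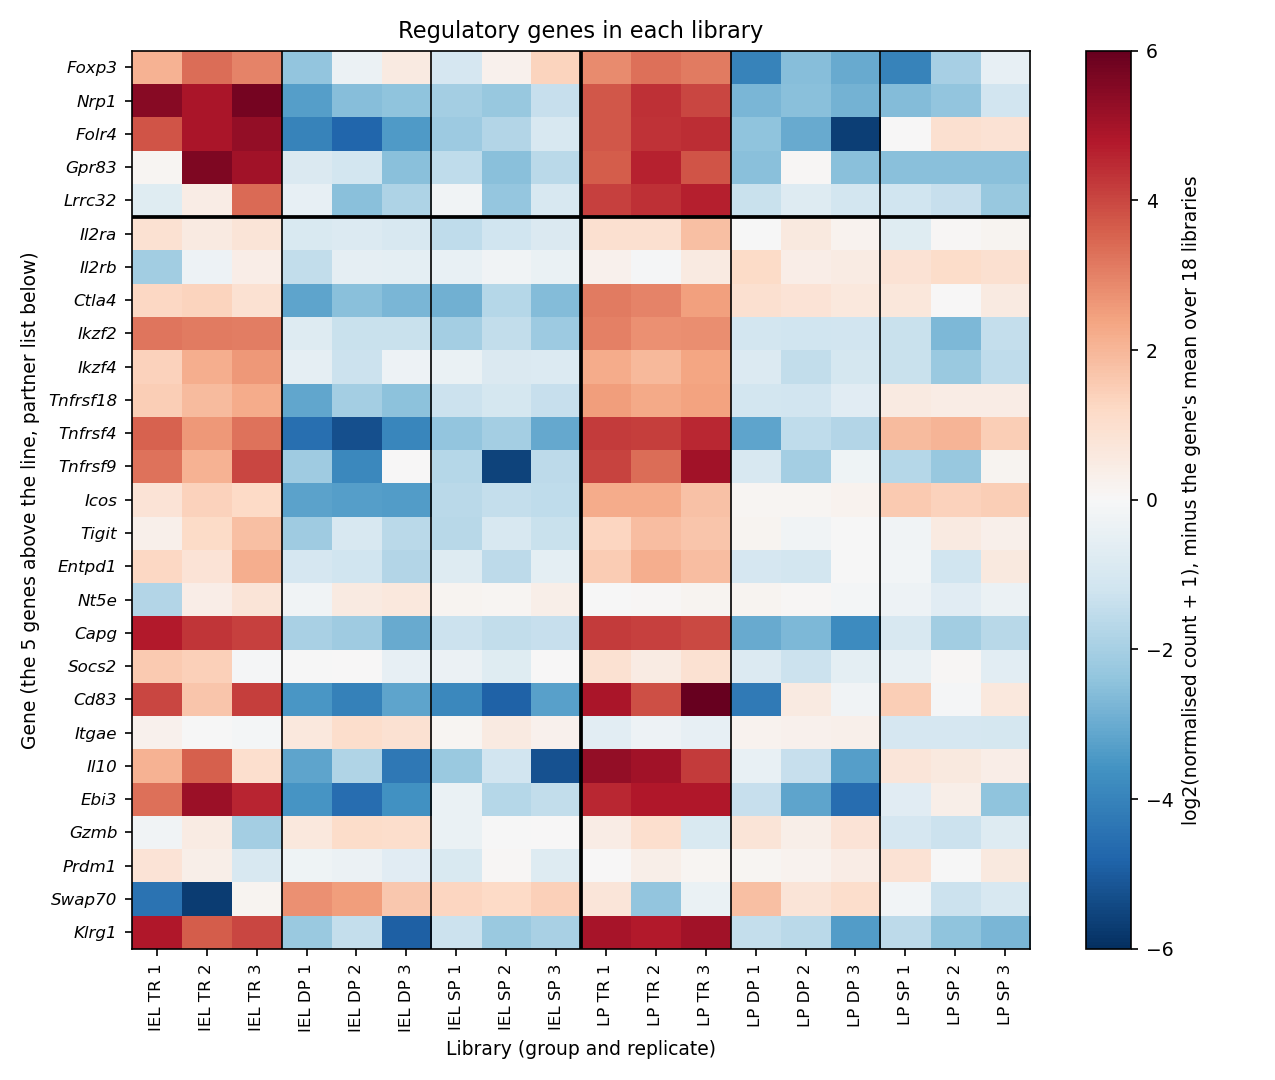
Log2(normalised count + 1) of the 5 genes (above the thick line) and the 22 partner genes in each of the 18 libraries, minus the mean of each gene over the libraries; red is above and blue below that mean. The TR libraries of both sites are red for Foxp3, Nrp1 and Folr4 and for partners such as Capg, Ikzf2 and Klrg1. The Lrrc32 row is red in the 3 LP TR libraries and in IEL TR library 3, and only slightly above its mean in IEL TR library 2.

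Some regulators and cofactors of Foxp3 were called as well. Of 26 on the list 25 were tested, and 3 were called higher and 1 lower in IEL TR than in IEL SP, 4 higher and 2 lower in LP TR than in LP SP (list medians 0.145 and -0.03, against -0.05 and -0.01 over all genes). Over all genes 1.49% were called higher and 1.42% lower in the IEL comparison, and 5.03% and 4.47% in the LP comparison. Gata3, a transcription factor that supports Foxp3 in regulatory cells of barrier tissues, averaged 1557 ± 369 in IEL TR against 417 ± 23.1 in IEL SP (1.87, limma adjusted p = 0.0133) and 2799 ± 1320 in LP TR against 754 ± 191 in LP SP (1.82, limma adjusted p = 0.000926). Satb1, a chromatin organiser, also stood higher in IEL TR (1.76, limma adjusted p = 0.00827 against IEL SP), as did Hif1a (2.11, limma adjusted p = 0.0254), while the histone methyltransferase gene Ezh2 was lower (-1.405, limma adjusted p = 0.0349). All 4 epithelial calls were lost without any 1 IEL SP library, and those of Hif1a and Ezh2 also without IEL TR library 2 or 3. Stat5b (0.92), which carries the interleukin-2 signal to Foxp3, and Rel (1.02) were higher and Foxp1 (-1.11) lower in LP TR than in LP SP (limma adjusted p = 0.00716, 0.00729 and 0.000945), the calls of Rel and Foxp1 being lost in a fit over all 18 libraries (limma adjusted p = 0.0942 and 0.0891).

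Of 28 neuropilin ligands and partners 17 were tested. None was called in IEL TR against IEL SP (limma; 3 at an unadjusted p under 0.05, 0 by edgeR and 2 by DESeq2). Over all genes 1.49% were called higher and 1.42% lower there, and 5.03% and 4.47% in LP TR against LP SP. In LP TR against LP SP 2 were higher, the semaphorin receptor Plxnd1 (27.2 ± 5.60 against 1.42 ± 1.85; 3.81, limma adjusted p = 0.00286) and Sema4d (0.45, limma adjusted p = 0.00391), and Sema4a, a ligand of Nrp1, was lower (6.97 ± 2.80 against 36.9 ± 26.5; -2.08, limma adjusted p = 0.014), the last lost without LP TR library 2 or LP SP library 2. Plxnc1, a plexin, was higher in TR than in DP cells at both sites (5.86 in IEL and 4.89 in LP; limma adjusted p = 0.00963 and 0.0221). Its IEL call was lost without IEL DP library 1 or 2, and its LP call without LP TR library 2 or 3 or LP DP library 2 or 3. Plxnd1 reached 10 only in TR libraries, with at most 6.18 in any DP or SP library. It was tested only through its high TR levels, so its call was no free outcome beside the share of all genes.

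Of 13 genes that handle latent TGF-beta with GARP 9 were tested. Itgav, the αv integrin that with β8 frees active TGF-beta, averaged 2306 ± 299 in LP TR against 185 ± 43.5 in LP SP (3.65, limma adjusted p = 1.9e-07), and Furin, which cuts the TGF-beta precursor, 1154 ± 263 against 5707 ± 479 (-2.33, limma adjusted p = 1.5e-05). In the epithelium neither gene was called, and the IEL TR libraries had Itgav between 293 and 727 against 209 to 231 in IEL SP. No gene of the list was called there in limma, where 1.49% of all genes were called higher and 1.42% lower. Of the 9 tested, 4 were under 0.05 before adjustment, edgeR called 0, and DESeq2 2 higher and 2 lower. In LP TR against LP SP those shares were 5.03% and 4.47%. In the interaction with site Itgav was called (-2.57, limma adjusted p = 0.049), where edgeR called no gene of the list. Itgb8, the β8 chain, ran from 4.97 to 196 in LP TR and 0.85 to 2.06 in LP DP (4.20, limma adjusted p = 0.0452, lost without LP TR library 1 or 3 or any LP DP library). Tgfb3 was lower in TR than in DP cells at both sites (-5.36 in IEL and -2.82 in LP; limma adjusted p = 0.00683 and 0.013). Its IEL call was lost without any 1 IEL DP library, and its LP call without LP TR library 1 or LP DP library 1.

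Of 10 folate receptors and carriers 6 were tested, and Folr1 and Folr2, the receptors closest to Folr4, were below the filter, with at most 13.1 in any library. Nothing on that list was called in TR against SP cells at either site in limma. The shares of all genes called were 1.49% higher and 1.42% lower in IEL, and 5.03% and 4.47% in LP. With 6 genes tested, no call lies near those shares and is no result about folate genes. Before adjustment 2 in IEL and 1 in LP were under 0.05, edgeR called none, and DESeq2 2 in IEL and 0 in LP. Fpgs, which traps folate in cells, was lower in IEL TR than in IEL DP (-3.33, limma adjusted p = 0.0403), a call lost on leaving out any 1 library, and Ggh, which undoes that trapping, was higher in LP TR than in LP DP (0.93, limma adjusted p = 0.0323), lost without LP TR library 1 or 3 or LP DP library 1 or 3. Of 6 genes of the GPR83 ligand pathway 3 were tested, the proSAAS gene Pcsk1n itself being at or under 1.37 in every library. Pcsk1, a prohormone convertase, stood at 16.2 to 134 in LP TR and at 0 in LP SP (limma adjusted p = 0.00041). It reached 10 only in TR libraries, with at most 1.03 in any DP or SP library, so its call was no free outcome. Gpr171, a receptor for a proSAAS peptide, stood at 1838 ± 634 in LP TR against 3187 ± 326 in LP SP (-0.84, limma adjusted p = 0.00848, and 0.114 in a fit over all 18 libraries).

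For each member the 4 genes with the nearest pattern were sought among 9233 genes, by the root mean square difference between the 6 centred group means of log2(normalised count + 1). This is a description over 6 groups and 18 libraries. Nearest to Foxp3 were Gpr15 (0.48, against a median of 2.37 over all genes searched), Ephx1, Ccr6 and Pros1. Gpr15, a homing receptor of the large intestine, averaged 515 in IEL TR, 32.8 in IEL DP and 42.2 in IEL SP, and 341 in LP TR, 6.77 in LP DP and 12.3 in LP SP. Nearest to Nrp1 were Cybb (0.485), Capg, Mmp9 and Pard6g, against a median of 3.40.

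Folr4 had Tspan32 (0.48), Cd81 (0.48), Ebi3 and Slamf6 nearest to it, against a median of 3.50. Tspan32, a tetraspanin, averaged 2611 in IEL TR, 3.17 in IEL DP and 32.9 in IEL SP, and 1189 in LP TR, 2.91 in LP DP and 104 in LP SP, the same order of TR, SP and DP as Folr4. Nearest to Gpr83 were Ncmap (0.22), Ky, Piwil2 and Ikzf2, against a median of 2.75, and to Lrrc32 Pcsk1 (0.23), Dkk3, Mreg and Ccr1, against 2.20. Among the members themselves Nrp1 and Gpr83 were nearest (1.01) and Folr4 and Lrrc32 farthest apart (2.28).

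Gpr83 and Folr4 are neighbours on chromosome 9, running towards each other with 15024 bases and no annotated gene between their ends. Their start sites are 43739 bases apart. Within 200 kb of their starts 4 other genes were tested, namely Mre11a, Ankrd49, Gm16379 and Panx1, and none was called in any of the 6 comparisons within a site. Their log2 differences between TR and SP cells ran from -0.36 to 0.56 in IEL and -0.57 to 0.54 in LP. Around Foxp3 10 other genes were tested, and in LP TR against LP SP 2 were called higher, Plp2 (2.36, limma adjusted p = 0.0184) and Gpkow (0.83, limma adjusted p = 0.0283). Over all genes 5.03% were called higher in that comparison, and 7.76% in LP TR against LP DP. In LP TR against LP DP 2 were called higher, Flicr, given above, and Plp2 (3.15, limma adjusted p = 0.0021). Lrrc32 had 2 tested neighbours, neither called in the 6 comparisons within a site, and Nrp1 had 0.

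**Figure D4:**
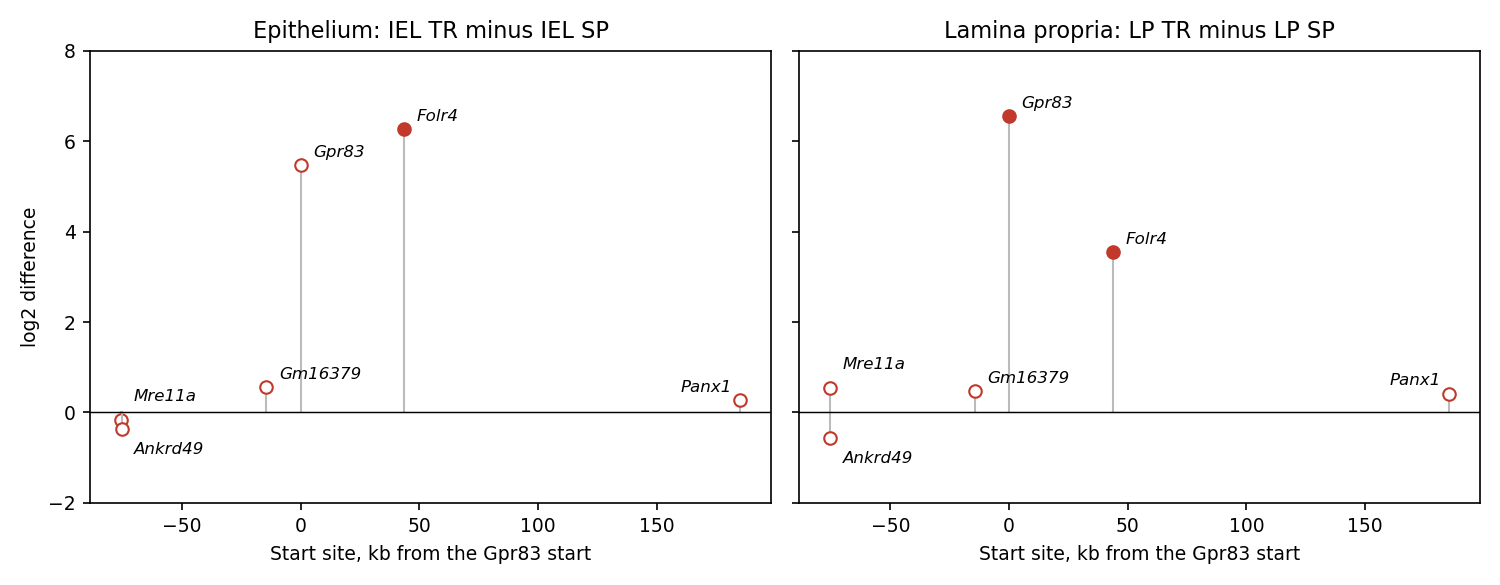
Log2 difference between TR and SP cells in the epithelium and in the lamina propria for Gpr83, Folr4 and the 4 other tested genes with a start within 200 kb, by distance of the start site from that of Gpr83 in kilobases; filled points have a limma adjusted p under 0.05. Gpr83 and Folr4 stand at 3.55 or above at both sites and the other 4 genes between -0.57 and 0.56.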

How the data were processed

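The deposited table gave 1 normalised signal per gene and library for 38392 genes. TopHat, HTSeq and mm10 (GRCm38) are named, without versions, per the submitters' processing notes. In this deposited signal each library has its own step: 100% of values above 0 came to a whole number of steps (tolerance 0.1), so whole reads were recovered. How the factors were made is not given in the sources used here. log2(value + 1) was fitted with limma 3.58.1 (R 4.3.3; trended, robust) for 15472 genes that reached 10 in 3 or more libraries, with Benjamini-Hochberg adjustment. Comparisons without IEL TR shared the variance of 15 libraries; those with IEL TR used only the groups compared. The fits were tested on simulated data. edgeR 4.0.16 (quasi-likelihood) and DESeq2 1.42.0 on the recovered counts, other pseudocounts, filters and scalings, library weights, a replicate block and leaving out each library were alternatives.

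The text names the 5 members, the called genes among the 4 with the smallest p on each gene list, the 4 genes nearest to each member in pattern, and called neighbours within 200 kb. Members and lists were chosen with earlier results of these data known. The labels call libraries biological replicates, but p-values measure only the spread between these libraries. Exon lengths, positions and overlaps are from GENCODE M21 and promoters from RefSeq, both on GRCm38, and 4 of 5 members had a promoter entry. Floors of 3 reads cover counting error only, since PCR copies are not independent molecules. The separate level of 1 marker gene is not reported here.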

Additional observations from a re-analysis of the deposited data

How the results depend on the processing

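In LP TR against LP SP and against LP DP 5 of 5 members were called under all 17 alternatives. Foxp3 is among them, and against LP SP its call describes the sort. Members called in the epithelium moved: IEL TR against IEL SP, 2 as reported, gave 4 with DESeq2 and 1 to 3 leaving out a library; IEL TR against IEL DP, also 2, gave 0 with no filter on low values, 4 with DESeq2, 4 with all 18 libraries in 1 fit and 2 to 3 leaving out a library. LP DP against LP SP, 1 as reported, gave 0 with only the groups compared. IEL DP against IEL SP, 0 as reported, gave 1 with DESeq2. IEL TR against LP TR gave 1 with DESeq2 and 1 with all 18 libraries, IEL DP against LP DP 1 with DESeq2 and 0 to 1 leaving out a library, and IEL SP against LP SP 1 with a pseudocount of 5, TMM factors, edgeR, DESeq2 or only the groups compared. The TR interaction gave 1 with DESeq2. The cause was not tested.

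The sign turned for Gpr83 in IEL TR against LP TR, from -0.443 to 0.675 with edgeR, 0.693 with DESeq2, 0.672 with library weights and -1.452 to 1.287 leaving out a library (1.287 without IEL TR library 1). For Foxp3 in that comparison leaving out a library gave -0.559 to 0.087, the last without IEL TR library 1.

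Calls over all genes varied more. IEL TR against IEL SP called 450, against 63 with the replicate block, 1799 with all 18 libraries, and 37 (without IEL SP library 2) to 629 leaving out a library. IEL TR against IEL DP called 640, against 9 with no filter, 2170 with all 18 libraries and 143 to 817 leaving out a library. IEL TR against LP TR called 93, against 0 with no filter or the replicate block and 1008 with all 18 libraries. IEL DP against LP DP called 1472, against 847 to 2156, IEL SP against LP SP 1533, against 862 to 2082, and the TR interaction 26, against 13 to 186 and 0 to 73 leaving out a library. LP TR against LP SP called 1470, against 854 with only the groups compared. IEL DP against IEL SP called 33, against 9 to 105, and LP DP against LP SP 119, against 45 to 357, the lower with only the groups compared and the higher with DESeq2. The 12 partner genes higher in IEL TR than in IEL SP were 7 with no filter and 6 to 12 leaving out a library; the 18 in LP TR were 15 to 18. Of 651 alternative values for single member differences, 617 kept direction and side of the threshold.

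Correlations of residuals between libraries of the same replicate number were small but all positive over 45 pairs. They ran from 0.00053 to 0.0887 (median 0.0385), none over 0.1, and all 18 libraries were most like those of their own number. This is a hint from the data that libraries of 1 number share something, while no pairing is stated in the design. The main fits leave it out. With the replicate block, Foxp3 passed in IEL DP against LP DP (2.486, adjusted p = 0.01705) and in IEL SP against LP SP (2.366, adjusted p = 0.02069) and Folr4 in the TR interaction (2.722, adjusted p = 0.02581), so that each of those 3 comparisons had 1 member called. Depth limits Nrp1, Gpr83 and Lrrc32 outside TR cells, where most libraries hold a few reads or none.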
